A study of Mus musculus with 3 samples.

Results

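Steroid hormones, endocannabinoids and prostaglandins are the lipid signals best known for timing implantation in the mouse, and 10 genes of these pathways were followed in blastocysts leaving dormancy. They were chosen by gene name, with earlier results of these data known. The steroid receptors were those for estrogen (Esr1) and progesterone (Pgr), and the endocannabinoid genes were the cannabinoid receptor Cnr1 and the anandamide hydrolase Faah. The others were the prostaglandin enzymes Ptgs1, Ptgs2 and Ptges, and the nuclear receptors Ppard, Rxra and Rxrb. All 10 were found among the 31510 genes of each deposited table, 4 by their deposited symbol and 6 by their Ensembl ID. Of these, 5 (Faah, Ptges, Ppard, Rxra and Rxrb) reached at least 1 RPKM in every library, and 5 (Esr1, Pgr, Cnr1, Ptgs1 and Ptgs2) stayed below that level in every library. RPKM is the number of exon reads divided by the kilobases of exon in the gene and by the size of the library. By the size rule defined below, 2 of the 5 measured genes (Ptges and Rxrb) were lower 12 h after estradiol than in dormant embryos. Over all tested genes, 7.66% were lower by that rule. With libraries scaled by the median ratio of their genes, 0 of the 5 passed it. Rxra missed the rule with the deposited values (log2 difference -0.97), and Faah was at its highest at 12 h.

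The embryos came from CD-1 mice 2 months of age in experimentally delayed implantation. The ovaries of all mothers were removed on day 4 of pregnancy, and all received progesterone at 2 mg per mouse on days 5 to 7, so that the dormant state is itself a progesterone-treated state. Dormant blastocysts were flushed from the uterus on the morning of day 8, with no estradiol. Reactivating blastocysts were collected 6 h, and reactivated blastocysts 12 h, after estradiol (E2) was injected into the mother on day 7. Each state was 1 library of RNA from more than 3000 pooled blastocysts, with no replicate, and a pool holds all cell types of the blastocyst together. Hormone treatment, day and hour of collection changed together and cannot be told apart.

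When ovarian estrogen reaches the progesterone-primed mouse uterus, the uterus becomes receptive and the dormant blastocyst resumes growth. Estrogen and progesterone act through nuclear receptors, of which the uterine ones are required for implantation. Anandamide, a lipid made on demand from membrane phospholipid, signals through the receptor encoded by Cnr1 and is destroyed by Faah, and its level is known to influence whether a blastocyst becomes competent to implant. Prostaglandins are made from arachidonic acid by a cyclooxygenase (Ptgs1 or Ptgs2) and a terminal synthase such as Ptges, and prostacyclin is a proposed ligand of the receptor encoded by Ppard, which binds DNA as a pair with a retinoid X receptor (Rxra, Rxrb).

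The upstream sequence was read for the 4 measured genes that differed most between the ends of the time course or in the opposite direction, taken from RefSeq (GRCm38.p6) as the 250 bases before the annotated start, less any base that an exon covers. Capitals mark a GC box (GGGCGG or its complement CCGCCC), a motif of many housekeeping promoters, and the letters run 5′ to 3′ on the strand of the gene.
Ptges, chr2:30903298-30903547, minus strand: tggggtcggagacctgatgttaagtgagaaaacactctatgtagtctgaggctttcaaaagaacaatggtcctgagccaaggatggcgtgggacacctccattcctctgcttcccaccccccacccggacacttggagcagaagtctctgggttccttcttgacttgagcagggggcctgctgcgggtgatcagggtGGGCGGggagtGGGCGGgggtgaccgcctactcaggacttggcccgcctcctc
Rxra, chr2:27676951-27677200, plus strand: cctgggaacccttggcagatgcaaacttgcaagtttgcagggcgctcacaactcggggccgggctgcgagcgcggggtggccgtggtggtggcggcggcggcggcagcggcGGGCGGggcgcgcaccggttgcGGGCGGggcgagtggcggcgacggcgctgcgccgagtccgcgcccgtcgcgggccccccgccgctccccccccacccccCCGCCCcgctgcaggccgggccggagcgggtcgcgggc
Rxrb, chr17:34031683-34031811, plus strand: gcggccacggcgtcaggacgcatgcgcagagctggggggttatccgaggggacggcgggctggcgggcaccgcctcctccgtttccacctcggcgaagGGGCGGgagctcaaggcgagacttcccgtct
Faah, chr4:116017927-116018174, minus strand: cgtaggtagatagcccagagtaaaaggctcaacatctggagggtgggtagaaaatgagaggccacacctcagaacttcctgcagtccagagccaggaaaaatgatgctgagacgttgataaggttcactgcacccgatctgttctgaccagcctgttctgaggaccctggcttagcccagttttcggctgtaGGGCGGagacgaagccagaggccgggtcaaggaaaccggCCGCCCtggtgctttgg
All 10 genes had entries, with 15 such windows in all. In the whole windows, before exon bases were taken off, the GC box occurred 2 times for Ptges, 3 times for this start of Rxra, 2 times for this start of Rxrb and 2 times for Faah. At least 1 GC box was found in 32.7% of the 32851 windows of all genes, on either strand. The estrogen response element GGTCANNNTGACC was in none of the 15 windows and in 0.0639% of all windows. The direct repeat AGGTCANAGGTCA, a binding sequence of PPAR and RXR pairs, was likewise in none of the 15 and in 0.0335% of all windows. The motif AGGTCA, which the direct repeat contains 2 times and which shares GGTCA with the estrogen response element, was in 14.0% of all windows and, among those of the 10 genes, in 1 window of Cnr1 (1 match) and in that of a second Rxra start (2 matches). These are matches of letters in a window of 250 bases and say nothing about binding.

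Related genes could share reads, so the longest identical coding stretch of each related pair was found in the GENCODE M21 transcripts. Shown in capitals with 15 bases on either side, it was 29 bases for Rxra and Rxrb and 14 bases for Ptgs1 and Ptgs2, both shorter than a read of 50 bases.
Rxra coding bases 1297 to 1355: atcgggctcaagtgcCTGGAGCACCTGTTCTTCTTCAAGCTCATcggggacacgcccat
Rxrb coding bases 1468 to 1526: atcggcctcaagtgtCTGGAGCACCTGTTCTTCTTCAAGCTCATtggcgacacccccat
Ptgs1 coding bases 1066 to 1109: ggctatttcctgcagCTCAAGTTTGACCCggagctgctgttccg
Ptgs2 coding bases 1018 to 1061: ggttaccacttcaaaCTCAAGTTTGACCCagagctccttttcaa
For 9 of the 10 genes no stretch of 50 bases was shared with a transcript of another gene, and for Ppard 8 such stretches (0.105% of its own) were shared with Ankrd11.

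The level of each gene in each library split the genes into 2 classes with a gap between them. The highest value in the lower class was 0.48 RPKM, for Ptgs2 in the reactivated library, and the lowest in the upper class was 3.51 RPKM, for Ppard in the same library. In the dormant library Rxrb stood above 90.6% of protein-coding genes, Ptges above 86.9%, Rxra above 78.2%, Faah above 72.3% and Ppard above 71.0%. In the reactivated library these shares were 79.3% for Rxrb, 74.2% for Ptges, 66.9% for Rxra, 78.3% for Faah and 65.3% for Ppard, so that Faah was the one of the 5 that stood higher among coding genes in the reactivated than in the dormant library.

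**Figure D1:**
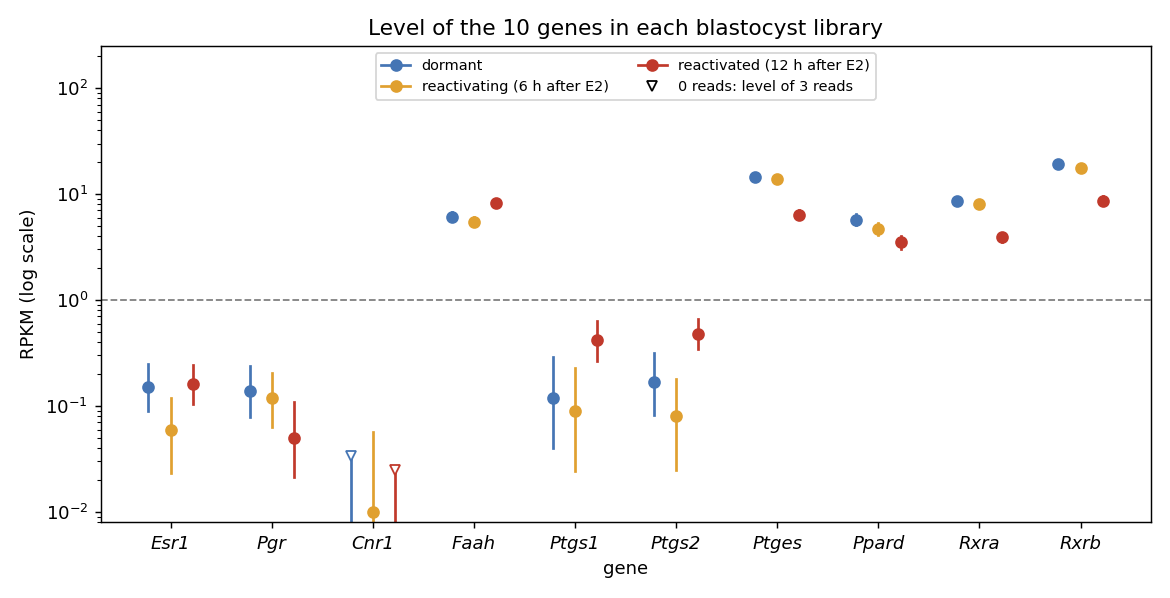
Level of each of the 10 genes in the dormant, reactivating and reactivated libraries, in RPKM on a log axis, with exact 95% Poisson intervals that cover counting error only. The dashed line is 1 RPKM. Where no exon read was counted, an open triangle and the upper end of the line stand at the level of 3 reads. Faah, Ptges, Ppard, Rxra and Rxrb lie at 3.51 RPKM or more in every library, and the other 5 genes at 0.48 RPKM or less.

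Exon reads alone do not show that a gene gives mature RNA, since total RNA also holds unspliced transcripts and stray reads. Each gene's density of exon reads per kilobase was therefore divided by its density of intron reads in the same library. For the 5 measured genes this ratio lay between 12.9 (Ptges, reactivated library) and 35.7 (Faah, dormant library), and each had reads across exon junctions in every library. For the 5 low genes the ratio ranged from 0 to 34.3, and junction reads numbered at most 4 per library.

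**Figure D2:**
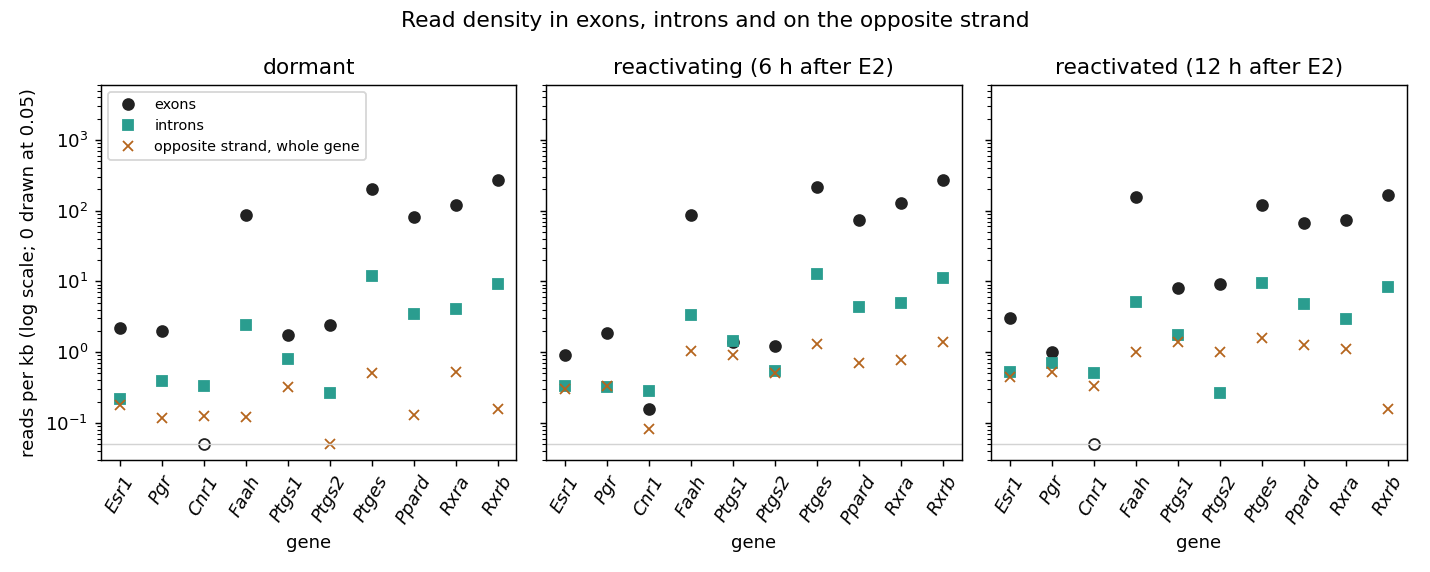
Reads per kilobase in exons, in introns and on the opposite strand of each gene, on a log axis, in 1 panel per library. Exon density stands at least 12.9 times above intron density for Faah, Ptges, Ppard, Rxra and Rxrb, and lies near it for Ptgs1 in the reactivating library and for Pgr in the reactivated library.

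The receptors for the 2 ovarian steroids were near the limit of what these libraries could count. Esr1 (ENSMUSG00000019768, chr10:4611593-5005614), which encodes the nuclear estrogen receptor alpha, had 17 exon reads in the dormant library, 7 in the reactivating and 24 in the reactivated one. These counts give 0.15 RPKM (95% Poisson interval 0.0902 to 0.248), 0.06 RPKM (0.0231 to 0.118) and 0.16 RPKM (0.104 to 0.242). The intervals of all libraries overlap, and the reactivating value is the lowest. Junction reads were 4 in the dormant library and 0 in the other libraries, and intron reads were 84, 129 and 202. Reads on the opposite strand were 70, 117 and 173, nearly as many as in the introns. The deposited tables place Esr1 on the minus strand and GENCODE M21 on the plus strand, so that sense and antisense are uncertain for this gene. The same disagreement holds for 29 genes of chromosome 10, where the strand of the deposited tables carried 4355 reads and the other strand 438 in the dormant library.

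Pgr (ENSMUSG00000031870, chr9:8899833-8968611), the progesterone receptor, had 14 exon reads in the dormant library, 13 in the reactivating and 7 in the reactivated one. That is 0.14 RPKM (0.0781 to 0.240), 0.12 RPKM (0.0635 to 0.204) and 0.05 RPKM (0.0214 to 0.109), with neighbouring states overlapping in their intervals. Its exon density was 5.19 times its intron density in the dormant and 5.79 times in the reactivating library, and 1.45 times in the reactivated library (exact binomial 95% interval 0.550 to 3.25). Only the reactivating library held junction reads for Pgr, 4 in number.

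Of 8 other steroid and orphan estrogen-related receptors, 6 stayed under 1 RPKM in every library, among them Esr2, Gper1 and Nr3c1. Esr2, the second nuclear estrogen receptor, had 1 exon read in the dormant library and 0 in the others, and Gper1, a membrane receptor for estrogen, had 0, 8 and 4. The glucocorticoid receptor Nr3c1 stood above Esr1 and Pgr in each library and came nearest to 1 RPKM, with 0.77, 0.84 and 0.83 RPKM in the dormant, reactivating and reactivated libraries. The 2 receptors above 1 RPKM were both orphan estrogen-related receptors. Esrrb, a factor of pluripotent and trophoblast cells, had 15.6, 17.1 and 7.70 RPKM, a log2 difference of -1.06 between reactivated and reactivating embryos. In that comparison 7.63% of all tested genes were lower by a log2 difference of at least 1. Esrra, a regulator of energy metabolism, had 8.87, 12.3 and 9.43 RPKM.

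Genes for the proteins that work with steroid receptors were measured without exception. All 14 coregulators and chaperones of the list reached 1 RPKM in a library. The highest was Hsp90ab1, the chaperone that holds unliganded receptors, with 371, 365 and 496 RPKM in the dormant, reactivating and reactivated libraries. Since there were no replicates, a gene was counted as higher or lower by size only, when log2((RPKM + 1)/(RPKM + 1)) was at least 1 in either direction and the higher library had at least 1 RPKM. By that rule the co-chaperone Stip1 rose to 113 RPKM in reactivated embryos, against 42.9 RPKM in dormant ones (log2 difference 1.37). The coactivator Ncoa1 fell to 2.83 RPKM in reactivated embryos, against 7.09 RPKM in dormant ones (log2 difference -1.08). The coactivator Ncoa2 had 3.76 RPKM in reactivated and 7.26 RPKM in dormant embryos (log2 difference -0.80), and the corepressor Ncor1 had 9.14 RPKM in reactivated and 15.1 RPKM in dormant embryos (log2 difference -0.66). In all, 12 did not pass the rule between reactivated and dormant embryos, where 12.9% of all tested genes passed it. Among the 12 was Fkbp4, the co-chaperone needed for uterine progesterone response, with 94.5 RPKM in reactivated and 61.8 RPKM in dormant embryos.

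Enzymes that make active steroids from cholesterol were sparse. Of 20 genes of steroid synthesis and inactivation, 19 were matched in the tables and 8 reached 1 RPKM in a library. Aromatase (Cyp19a1), which makes estrogen, had 1 exon read in the dormant library, 2 in the reactivating and 0 in the reactivated one, and the side-chain cleavage enzyme Cyp11a1 had 0, 3 and 8. Most of the 8 measured genes were hydroxysteroid dehydrogenases of the Hsd17b family, whose members also act on cholesterol precursors or fatty acids. Hsd17b7, which works in cholesterol synthesis as well, rose by the size rule to 3.77 RPKM in reactivated embryos, against 1.10 RPKM in reactivating ones. It alone of the 8 passed the rule, beside 3.82% higher among all tested genes. Hsd17b12, an enzyme of fatty acid elongation, had 42.6 RPKM in reactivated and 20.9 RPKM in dormant embryos, a log2 difference of 0.99 that missed the rule. Srd5a1, a steroid reductase, had 1.07 RPKM in reactivated and 0.28 RPKM in reactivating embryos (log2 difference 0.69), and Hsd17b11 had 0.9 RPKM in reactivated and 1.43 RPKM in dormant embryos (log2 difference -0.35).

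Known target genes of the steroid receptors, most of them defined in the uterus, gave 7 of 14 with at least 1 RPKM. Greb1, a classical estrogen-induced gene, had at most 0.09 RPKM, and Tff1 had no exon read in any library. Of the 7, Cyp26a1, which degrades retinoic acid, fell by the rule to 8.60 RPKM in reactivated embryos, against 19.7 RPKM in reactivating ones. It alone of the 7 passed the rule, beside 7.63% lower among all tested genes. Ccnd1, a cyclin of cell cycle entry, had 17.9 RPKM in reactivated and 9.07 RPKM in dormant embryos (log2 difference 0.91). The large endocytic receptor Lrp2 had 6.46 RPKM in reactivated and 12.5 RPKM in dormant embryos (log2 difference -0.86). Wnt4, a signal of the uterine progesterone response, had only 6, 31 and 32 exon reads, with 1.45 RPKM in reactivating and 0.31 RPKM in dormant embryos (log2 difference 0.90).

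The receptor of anandamide was not detected and its hydrolase was. Cnr1 (ENSMUSG00000044288, chr4:33924593-33948831), the cannabinoid receptor of brain and embryo, had 0 exon reads in the dormant library, 1 in the reactivating and 0 in the reactivated library. The level of 3 reads, used as a limit for a count of 0, is 0.0338 RPKM in the dormant and 0.0251 RPKM in the reactivated library. The exact 95% Poisson intervals reach higher, to 0.0415 RPKM in the dormant and 0.0309 RPKM in the reactivated library. For the reactivating value of 0.01 RPKM the upper limit is 0.0565 RPKM. No junction read was seen, and introns held 6, 5 and 9 reads. Cnr1 RNA was thus not detectable at this depth, and no fold change is given.

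Faah (ENSMUSG00000034171, chr4:115967145-116017926), the enzyme that hydrolyses anandamide and related lipids, had 383 exon reads in the dormant library, 382 in the reactivating and 691 in the reactivated one. That is 6.12 RPKM (95% Poisson interval 5.52 to 6.77), 5.50 RPKM (4.96 to 6.08) and 8.22 RPKM (7.61 to 8.85). The reactivated library lay above the other libraries with no overlap of intervals, and those overlapped each other. Junction reads were likewise most numerous in the reactivated library, with 55, 56 and 104. Per library total, reactivated embryos had 1.34 times the Faah reads of dormant ones (exact binomial 95% interval 1.18 to 1.52), a log2 difference of 0.37 that missed the size rule.

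Of 14 other genes of endocannabinoid signalling, 8 reached 1 RPKM in a library. The second cannabinoid receptor Cnr2 had at most 0.12 RPKM and Gpr55, another receptor of cannabinoid-like lipids, at most 0.1 RPKM. On the synthesis side, Napepld, the phospholipase that releases anandamide, stayed at 0.9, 0.76 and 0.81 RPKM in the dormant, reactivating and reactivated libraries. Gde1, which acts in another route to anandamide, had 9.65, 16.2 and 13.6 RPKM. For 2-arachidonoylglycerol, the other main endocannabinoid, the synthase Daglb had 5.19, 6.80 and 6.34 RPKM and the lipase Mgll had 12.3, 14.8 and 9.47 RPKM.

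Of the 8 tested genes of the endocannabinoid list, 2 were higher by the size rule in reactivated than in dormant embryos, beside 5.27% of all tested genes. Between reactivating and dormant embryos 1 of 8 was higher, beside 2.68% of all tested genes. Abhd6, a further lipase of 2-arachidonoylglycerol, had 19, 17 and 111 exon reads and rose to 4.39 RPKM in reactivated embryos, against 1.01 RPKM in dormant ones (log2 difference 1.42). Its reads per library total were 4.35 times those of dormant embryos (exact binomial 95% interval 2.66 to 7.49). Fabp5, a fatty acid binding protein that carries anandamide inside cells, had only 5, 38 and 28 exon reads. It rose to 3.69 RPKM in reactivating embryos, against 0.54 RPKM in dormant ones (log2 difference 1.61), and stood at 2.25 RPKM in reactivated embryos (log2 difference 1.08).

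Both cyclooxygenases, which carry out the committed step of prostaglandin synthesis, stayed below 1 RPKM. Ptgs1 (ENSMUSG00000047250, chr2:36230426-36252272), the constitutive enzyme of many tissues, had 5 exon reads in the dormant library, 4 in the reactivating and 23 in the reactivated one. That is 0.12 RPKM (0.0402 to 0.289), 0.09 RPKM (0.0243 to 0.228) and 0.42 RPKM (0.268 to 0.635), and the reactivated count was the highest, with an interval that overlapped the dormant one. None of the libraries held a junction read for Ptgs1. In the reactivated library introns held 33 reads and the opposite strand 30, and the exon density was 4.62 times the intron density. M21 places Gm43621, an unclassified transcript, on the opposite strand at this locus.

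Ptgs2 (ENSMUSG00000032487, chr1:150100031-150108227), the inducible cyclooxygenase, had 10 exon reads in the dormant library, 5 in the reactivating and 38 in the reactivated one. That is 0.17 RPKM (0.0820 to 0.314), 0.08 RPKM (0.0250 to 0.180) and 0.48 RPKM (0.342 to 0.663). The interval of the reactivated library lay above those of the other libraries. Unlike Ptgs1, Ptgs2 had junction reads in every library, 1, 3 and 4. Its introns held 1, 2 and 1 reads, or 0.267, 0.534 and 0.267 per kilobase, beside 0.790, 1.42 and 1.74 for Ptgs1. The exon density of Ptgs2 was 9.04, 2.26 and 34.3 times its intron density. In the reactivating library the exact binomial 95% interval of that ratio, 0.370 to 23.7, included 1. Per library total, reactivated embryos had 2.83 times the Ptgs2 reads of dormant ones (exact binomial 95% interval 1.38 to 6.36) and 6.28 times those of reactivating ones (2.47 to 20.4). For Ptgs1 the same ratios were 3.42 (1.27 to 11.5) and 4.75 (1.62 to 18.9). The size rule did not test either gene, because both stayed under 1 RPKM.

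Ptges (ENSMUSG00000050737, chr2:30889471-30929863), the inducible synthase that converts the cyclooxygenase product to prostaglandin E2, was the second most abundant of the 10 genes in the dormant library. It had 758 exon reads in the dormant, 810 in the reactivating and 451 in the reactivated library. Its level was 14.4 RPKM (13.4 to 15.5), 13.9 RPKM (12.9 to 14.9) and 6.39 RPKM (5.81 to 7.00). The dormant and reactivating libraries overlapped, and the reactivated one lay below both. Junction reads were 32, 24 and 14. The gene model of M21 spans 40393 bases, against 13825 in the deposited tables, and the deposited exon length of 3720 bases underlies its RPKM. The longer M21 model also spans Gm13400, a processed pseudogene on the same strand.

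Around these enzymes, 10 of 14 genes of prostaglandin synthesis and breakdown reached 1 RPKM in a library. Pla2g4a, the cytosolic phospholipase that releases arachidonic acid, had 0.12, 0.04 and 0.26 RPKM in the dormant, reactivating and reactivated libraries, and Pla2g6, a calcium-independent phospholipase, 2.99, 2.74 and 1.97 RPKM. The other prostaglandin E synthases behaved differently from Ptges in their values. Ptges2 had 12.4, 11.1 and 13.2 RPKM, and Ptges3, better known as a co-chaperone of steroid receptors, had 6.52, 8.61 and 12.5 RPKM. Neither passed the size rule in any comparison.

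On the side of breakdown, Hpgd, the dehydrogenase that inactivates prostaglandin E2, had 7, 24 and 68 exon reads. It rose to 4.24 RPKM in reactivated embryos, against 0.59 RPKM in dormant ones (log2 difference 1.72). Of the 10 tested genes of this list it alone passed the rule, beside 5.27% higher among all tested genes. Its reads per library total were 7.23 times those of dormant embryos (exact binomial 95% interval 3.32 to 18.7). Ptgr1, which reduces the product of Hpgd, had 102 RPKM in reactivated and 51.3 RPKM in dormant embryos, a log2 difference of 0.98 just short of the rule. Ptgr2, a related reductase, had 12.8 RPKM in reactivated and 19.8 RPKM in dormant embryos (log2 difference -0.59).

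Receptors for prostaglandins were below 1 RPKM throughout, with Ptger4, a receptor of prostaglandin E2, the highest of the 9 at 0.36 RPKM in the reactivating library. Ptgir, the prostacyclin receptor, had 3, 3 and 4 exon reads. The 2 transporters of the list were measured, the efflux pump Abcc4 with 8.43, 6.21 and 9.90 RPKM and the uptake carrier Slco2a1 with 4.76, 3.78 and 5.08 RPKM. Prostacyclin synthase (Ptgis), the source of the proposed Ppard ligand, had 1.65, 1.46 and 1.12 RPKM.

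**Figure D3:**
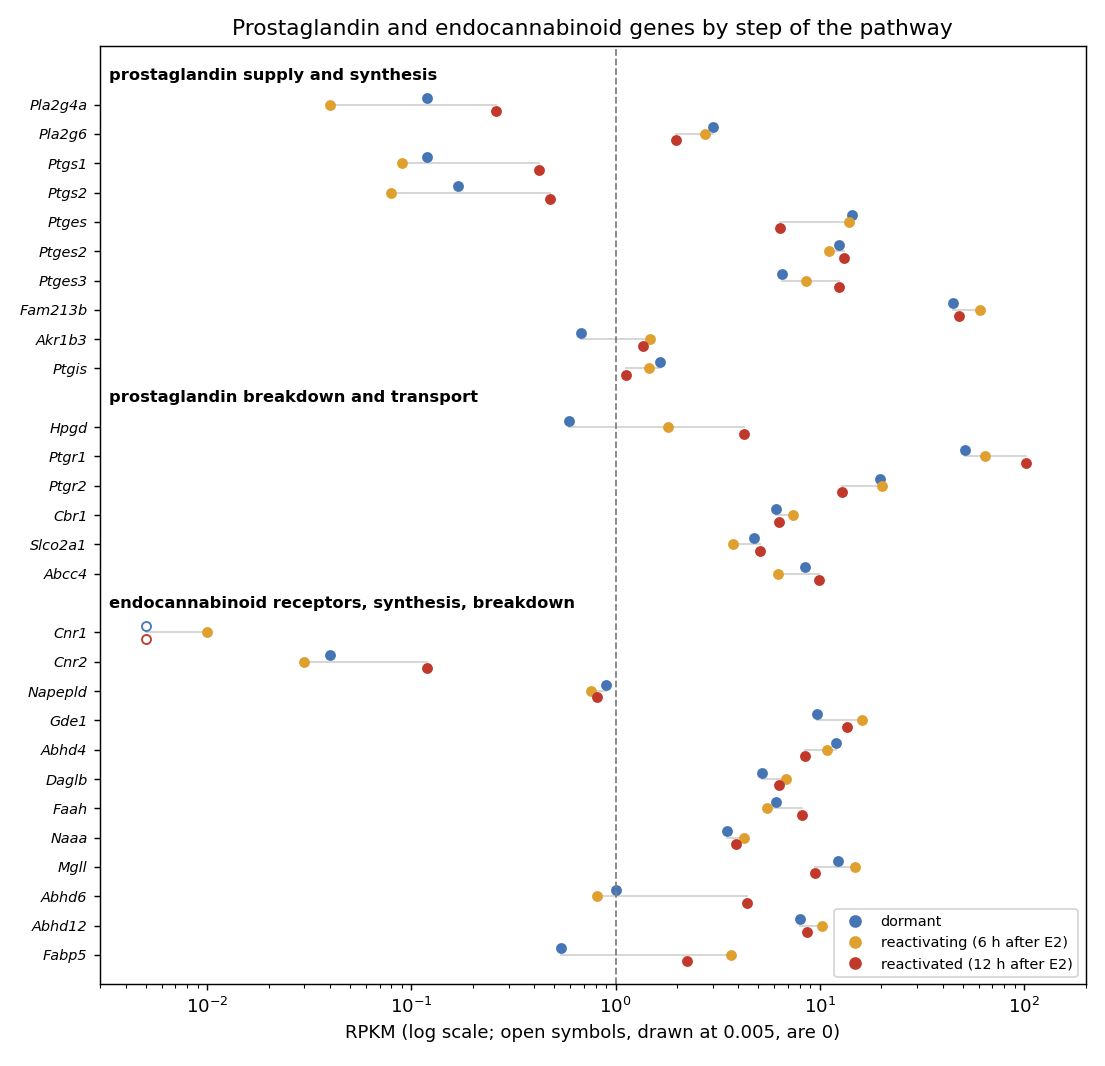
Level in RPKM, on a log axis, of prostaglandin and endocannabinoid genes ordered by their step in the pathway, with 1 point for each library and a dashed line at 1 RPKM. In the reactivated library Hpgd reaches 4.24 RPKM, against 0.59 RPKM in the dormant library, and Ptges falls to 6.39 RPKM, against 14.4 RPKM in the dormant library.

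Ppard, Rxra and Rxrb were measured in every library and had their lowest level in the reactivated one. Ppard (ENSMUSG00000002250, chr17:28232700-28301474), a receptor for fatty acids and their products, had 260 exon reads in the dormant library, 237 in the reactivating and 214 in the reactivated one. Its level was 5.73 RPKM (95% Poisson interval 5.05 to 6.47), 4.70 RPKM (4.12 to 5.34) and 3.51 RPKM (3.05 to 4.01). Neighbouring intervals of the dormant and reactivating libraries overlapped, and the reactivated library lay below both. Its intron reads were 226, 286 and 310, not corrected for library size, and its junction reads were 28, 16 and 25. Per library total, reactivated embryos had 0.612 times the Ppard reads of dormant ones (exact binomial 95% interval 0.509 to 0.736), a log2 difference of -0.58.

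Rxra (ENSMUSG00000015846, chr2:27676440-27762957) encodes a retinoid X receptor, the shared partner of many nuclear receptors. It had 667 exon reads in the dormant library, 692 in the reactivating and 408 in the reactivated one, or 8.64 RPKM (7.999 to 9.32), 8.07 RPKM (7.48 to 8.70) and 3.93 RPKM (3.56 to 4.33). The reactivated library again lay apart, below the other libraries. Junction reads were 80, 46 and 24. Reactivated embryos had 0.455 times the Rxra reads of dormant ones (exact binomial 95% interval 0.401 to 0.515) and 0.487 times those of reactivating ones (0.430 to 0.552), and the log2 differences of -0.97 and -0.88 missed the size rule.

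Rxrb (ENSMUSG00000039656, chr17:34031812-34038399), its close relative, was the most abundant of the 10 genes per length in each library, although in the reactivated one its interval overlapped that of Faah. It had 710, 719 and 431 exon reads, or 19.2 RPKM (17.8 to 20.7), 17.5 RPKM (16.2 to 18.8) and 8.66 RPKM (7.86 to 9.52) in the dormant, reactivating and reactivated libraries. Dormant and reactivating intervals overlapped, and the reactivated one lay below them. The junction reads of Rxrb did not follow its exon reads and numbered 53, 54 and 56. Rxrg, the remaining retinoid X receptor, had 3, 2 and 0 exon reads.

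Partners of these receptors were read alongside. Of 14 PPAR and RXR partners, 4 reached 1 RPKM in a library (Nr1h2, Ppargc1b, Rarg and Rara). Nr1h2, a sterol-sensing receptor that pairs with RXR, fell to 7.45 RPKM in reactivated embryos, against 17.4 RPKM in dormant ones (log2 difference -1.12). Of the 4 it alone passed the rule, beside 7.66% lower among all tested genes. Ppargc1b, a coactivator of fatty acid oxidation genes, had 5.24 RPKM in reactivated and 10.7 RPKM in dormant embryos (log2 difference -0.90), and the retinoic acid receptor Rara had 0.66 RPKM in reactivated and 1.76 RPKM in dormant embryos. The median log2 difference of the 4 was -0.82 between reactivated and dormant embryos, beside -0.07 over all tested genes. Ppara and Pparg, the other PPAR genes, had at most 0.41 and 0.11 RPKM.

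Target genes of PPAR receptors gave no common direction. Of 14, 10 reached 1 RPKM, and 2 of them fell by the rule between dormant and reactivated embryos while none rose. Over all tested genes, 7.66% fell and 5.27% rose by it. Cpt1a, which brings long-chain fatty acids into mitochondria, had 3.99 RPKM in reactivated and 10.8 RPKM in dormant embryos (log2 difference -1.24). Acadl, an acyl-CoA dehydrogenase of fatty acid oxidation, had 16.9 RPKM in reactivated and 35.9 RPKM in dormant embryos (log2 difference -1.05). Ucp2, a mitochondrial carrier, had 6.39 RPKM in reactivated and 3.23 RPKM in dormant embryos (log2 difference 0.80). Acaa2, a thiolase of fatty acid oxidation, had 36.4 RPKM in reactivating and 22.1 RPKM in dormant embryos (log2 difference 0.70). The median of the 10 was 0.08, beside -0.07 over all tested genes.

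Set against all genes, the first 6 h after E2 brought little difference in the 5 measured members. None of the 5 passed the size rule between reactivating and dormant embryos, where 5.75% of the 12126 tested genes did (2.68% higher and 3.07% lower). Their read shares were between 0.820 (Ppard) and 0.962 (Ptges) times those of dormant embryos, and only for Ppard did the exact binomial 95% interval (0.685 to 0.982) leave out 1. Their median log2 difference was -0.13, beside 0.06 over all tested genes.

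By 12 h, 2 of the 5, Ptges and Rxrb, had fallen by the rule between reactivated and dormant embryos, where 12.9% of the 12037 tested genes passed it in either direction, 5.27% higher and 7.66% lower. Ptges had 0.443 times the reads of dormant embryos per library total (exact binomial 95% interval 0.393 to 0.498), a log2 difference of -1.06. Rxrb had 0.452 times (0.400 to 0.510), a log2 difference of -1.06. Among all tested genes, 6.39% had a lower difference than Ptges, 6.35% a lower one than Rxrb, 8.27% a lower one than Rxra and 20.6% a lower one than Ppard. The difference of Faah was above that of 76.9% of tested genes. Fewer cells of a type and less RNA per cell cannot be told apart in these pools.

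Between the last states, Ptges alone passed the rule, with 6.39 RPKM in reactivated and 13.9 RPKM in reactivating embryos (log2 difference -1.01), beside 11.4% of the 12065 tested genes in either direction, 3.82% higher and 7.63% lower. Rxrb missed it at -0.94. Reactivated embryos had 1.495 times the Faah reads of reactivating ones (exact binomial 95% interval 1.32 to 1.70), a log2 difference of 0.50. The comparisons share libraries, so these values are not independent of the ones against dormant embryos.

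These calls lie close to the threshold and depend on the scaling. With libraries scaled by the median ratio of their genes instead of by total reads, Ptges had a log2 difference of -0.98 and Rxrb one of -0.97 between reactivated and dormant embryos, and neither passed. That scaling moved the median of all tested genes between reactivated and reactivating embryos to 0.02, against -0.13 as deposited, and there Ptges had -0.87, Rxrb -0.79, Rxra -0.74, Ppard -0.21 and Faah 0.65. It also turned the split of all calls in that comparison into 671 higher and 668 lower, against 461 higher and 920 lower as deposited. Among the list genes named above, it ended the calls of Esrrb (-0.91), Cyp26a1 (-0.96) and Acadl (-0.95), and put Ptgr1 (1.07), Hsd17b12 (1.09) and, narrowly, Ccnd1 past the rule between reactivated and dormant embryos. The direction of the 5 genes was the same under both scalings.

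**Figure D4:**
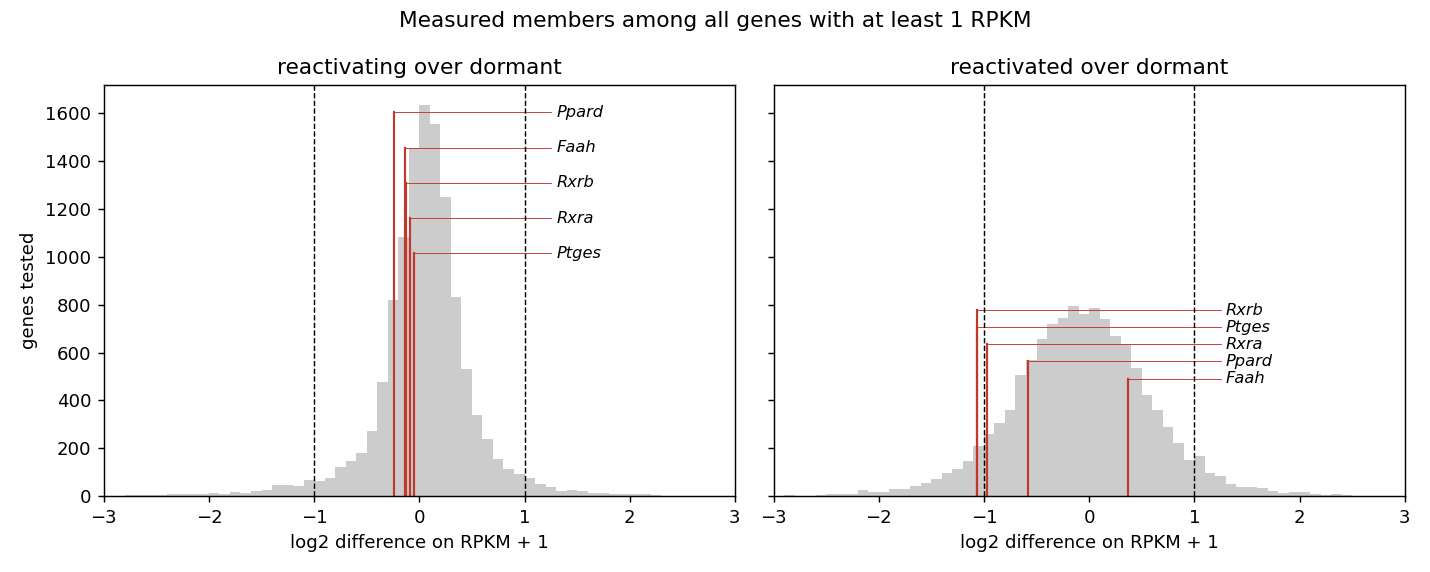
Number of tested genes (at least 1 RPKM in the higher library) by log2 difference on RPKM + 1, for reactivating over dormant and reactivated over dormant embryos, with the 5 measured members as red lines whose height carries no meaning. Dashed lines mark the size rule at -1 and 1. All 5 lie inside the rule at 6 h, and Ptges and Rxrb lie just outside it at 12 h.

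For each of the 5, the protein-coding genes with the most similar course were found as the nearest in centred log2(RPKM + 1) over the 3 libraries, among the 6788 such genes that reached 5 RPKM. Nearest to Faah were Trim36 (4.99, 4.44 and 6.73 RPKM in the dormant, reactivating and reactivated libraries) and Psmd5. Ptges was closest to BC029722 and Ube2l6, Ppard to Chpf and Pdpn, and Rxra to Map3k9 and Spg11. Rxrb was closest to Eif4ebp2 (26.2, 23.9 and 11.9 RPKM) and Ciz1. With 3 points a course is easily matched, and between 74 (Rxrb) and 151 (Faah) genes lay within a distance of 0.1.

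The libraries held 9298675 (dormant), 10364607 (reactivating) and 12941447 (reactivated) exon reads. With the larger library totals that underlie the deposited RPKM, 3 reads on a gene with 1 kb of exon correspond to 0.213, 0.191 and 0.158 RPKM. Reads on the opposite strand made up 3.86%, 4.75% and 4.87% of gene reads. All 13 embryo markers exceeded 1 RPKM in every library, and their summed level was 1372, 1396 and 1127 RPKM, mostly from Krt18 (807, 834 and 624 RPKM). Within them, Cdx2 and Gata3, factors of the trophectoderm, had 34.8 and 21.1 RPKM in reactivated embryos, against 113 and 48.0 RPKM in dormant ones. Elf5, a factor of trophoblast stem cells, had 81.3 RPKM in reactivated and 30.1 RPKM in dormant embryos. Sox17, a factor of the primitive endoderm, had 6.63 RPKM in reactivated and 11.4 RPKM in dormant embryos. The other markers differed less. Gata4 had 20.3 RPKM in reactivated and 23.2 RPKM in dormant embryos, and Eomes had 81.9 and 87.9 RPKM. Gata6 was lower, with 7.47 and 11.8 RPKM, while Pou5f1 was higher, with 124 and 87.1 RPKM, and Nanog likewise, with 17.7 and 14.6 RPKM.

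Of 10 uterine epithelium markers, 5 reached 1 RPKM, and their summed level was 200 RPKM in the dormant, 177 in the reactivating and 91.6 in the reactivated library. Most of that sum came from Klf5, which blastocysts also express, with 127, 104 and 62.1 RPKM. Lif, a cytokine of the uterine glands, had 9.55 RPKM in reactivated and 35.8 RPKM in dormant embryos (log2 difference -1.80). Wfdc2 had 13.4 RPKM in reactivated and 30.1 RPKM in dormant embryos (log2 difference -1.11), and Muc1 had 1.56 RPKM in reactivated and 3.61 RPKM in dormant embryos (log2 difference -0.85). Foxa2 went the other way, with 3.60 RPKM in reactivated and 1.82 RPKM in dormant embryos (log2 difference 0.71). Sprr2f had 0, 1 and 0 exon reads and Cldn10 0, 0 and 13. Of 10 immune cell markers 5 reached 1 RPKM in a library, with sums of 22.9, 18.2 and 7.44 RPKM, led by Laptm5. Cd14 had 0.54 RPKM in reactivated and 2.97 RPKM in dormant embryos (log2 difference -1.37), and Tyrobp was at 0 in the reactivated library and Ly6g in the dormant one. Stroma markers (3 of 10) summed to 20.9, 19.0 and 16.6 RPKM, with Hand2 at 0 in the reactivated library. Most of that sum was Pdgfra, with 12.1, 12.7 and 10.1 RPKM, and these pools do not show whether it came from embryo or uterus. Without Pdgfra the directions differed, with Col3a1 at 0.71 RPKM in reactivated and 2.39 RPKM in dormant embryos, and Vim at 4.89 RPKM in reactivated and 3.58 RPKM in dormant embryos. Red blood cell markers (0 of 7) stayed under 1 RPKM in sum in each library, with Hba-a1 and Hba-a2 at 0 in each. The sums for uterine epithelium, stroma and immune cells moved in the same direction as Ptges, Rxra and Rxrb at 12 h, though not every marker did. The embryo markers also had a lower sum, with 1127 RPKM in the reactivated and 1372 RPKM in the dormant library. The part of uterine and immune cells in the values of Ptges, Rxra and Rxrb was not tested.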

How the data were processed

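RNA of mouse blastocysts was measured in 3 libraries, 1 per state, grouped by the labels. Total RNA was freed of ribosomal RNA and gave SOLiD single-end reads of 50 bases, per the labels' protocols. The authors deposited, per the file headers, read counts per gene in exons, introns, across junctions and on the opposite strand, and an RPKM per gene. The submitters' processing notes name the build GRCm38, with aligner, counter and annotation not given in the sources used here.

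Members (the 10 genes) and all gene lists were chosen with earlier results of these data known. They were matched by symbol or Ensembl ID. Coordinates are those of GENCODE M21 (GRCm38), which held 26687 of the 31510 IDs. RPKM values were used as deposited, from which library totals of 14118723 (dormant), 15687239 (reactivating) and 18982195 reads (reactivated) follow. Differences are log2((RPKM + 1)/(RPKM + 1)), which understates changes of low genes. Read ratios are per library total. With 1 library per state no test, SD or p-value was possible. Poisson and binomial intervals are exact, at 95%, and cover counting error only, since reads lack molecular identifiers and need not be independent molecules. For a count of 0 the level of 3 reads was used as a limit, below the upper limit of 3.69 reads of the exact interval. From each list the text names the up to 4 genes with the largest difference in any comparison, those past the size rule, and those at the step of a member under 1 RPKM. A few others are named after their values were seen, as examples of level, because they missed the rule narrowly or because they moved differently from others of their list. Values of a few list genes are not reported here. Python 3.11.15, numpy 2.4.6, pandas 2.3.3, scipy 1.17.1 and matplotlib 3.10.9 were used.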

Additional observations from a re-analysis of the deposited data

How the results depend on the processing

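Each of the 15 differences of the 5 measured genes was recomputed with 5 alternatives (a pseudocount of 0.1 RPKM, CPM over summed exon reads, median-ratio scaling, upper-quartile scaling, and subtraction of the intron read density), and all 75 values kept their sign. Of these, 73 lay within the counting interval of the reported value. The 2 outside were Rxra by CPM, with -1.16 for reactivated over dormant and -1.06 for reactivated over reactivating embryos. The call differed from the reported one in 12 of the 75, and the reported calls lie close to the threshold. For reactivated over dormant embryos, 2 genes passed as reported, 3 with the smaller pseudocount or with CPM (Rxra joined), and 0 with median-ratio or upper-quartile scaling. For reactivated over reactivating embryos, 1 passed as reported, 3 with the smaller pseudocount, 5 with CPM, where Ptgs1 and Ptgs2 were higher with log2 differences of 1.003 and 1.41, and 0 with median-ratio or upper-quartile scaling. A minimum of 5 RPKM or none changed no count. For reactivating over dormant embryos 0 passed under each. At detection levels of 0.5 and 5 RPKM, by the lower Poisson limit or after intron subtraction, 5 genes reached the level in at least 1 library, as reported; at 5 RPKM, Ppard and Rxra did not do so in every library. No paired analysis was possible because each state has 1 library. Depth limits the low genes most: Cnr1, Pgr, Ptgs1 and Esr1 rest on 24 exon reads or fewer per library, Ptgs2 on 38 or fewer, and no value has a replicate check.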
